A study of Homo sapiens with 3 samples.

Results

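The genes examined here encode deubiquitinases and SUMO proteases, the enzymes that cut ubiquitin or its relative SUMO from proteins. Members were the protein-coding genes of the deposited tables whose symbol is USP followed by digits (with or without an X), OTUD followed by a digit (with or without a letter), UCHL followed by a digit, or SENP followed by a digit. The rule used names and no measured value. It gave 69 of 57773 genes, or of 20327 protein-coding genes: 51 USP, 8 OTUD, 3 UCHL and 7 SENP genes. The description of all 69 in the deposited tables names a peptidase, a hydrolase or a deubiquitinase. RNA was measured in tumorspheres of MDA-MB-231, an established human breast cancer line, which were grown without attachment in medium with epidermal growth factor, B27 supplement, insulin and albumin. One library came from spheres transfected with a LINC00273 clone in a pcDNA-CMV vector (labelled as overexpressing LINC00273), 1 from spheres that received M2 at 10 µM (the labels give this compound by code alone), and 1 from spheres with no treatment (control), each at 24 h. Per the label, the control had no transfection, so the transfection itself and LINC00273 cannot be told apart. Each group is 1 library, so no difference has a replicate check and no p-value is given.

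Ubiquitin is joined to proteins by a chain of activating, conjugating and ligating enzymes, and the tag can send a protein to the proteasome, move it between membranes or change its partners. Deubiquitinases reverse this step. Most of them, the USP, OTUD and UCHL families included, are cysteine proteases that each act on a set of substrates or on a kind of ubiquitin chain. SENP enzymes do the same for SUMO, and they also trim newly made SUMO to its mature form. In tumour cells these enzymes are known for setting the stability of proteins such as MDM2, MCL1 and the receptors of TGF-beta.

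USP enzymes share a short stretch around the catalytic cysteine, the Cys box. The coding sequences around it are shown for 9 USP genes that the results turn on. The ratios between libraries ran with the GC content of the transcript, and these windows show GC content over this stretch only. Each window holds 60 nt of the GENCODE 29 transcript, 5′ to 3′, and the capitals mark the 12 nt that encode the Cys box, ending with the codon of the catalytic cysteine. The first 5 genes were at least 2-fold higher with M2 than in the control (USP45 with fewer than 100 reads), USP4, USP22 and USP5 were lower there, and USP15 is shown as the relative of USP4.
USP45: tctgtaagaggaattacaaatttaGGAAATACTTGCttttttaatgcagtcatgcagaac
USP37: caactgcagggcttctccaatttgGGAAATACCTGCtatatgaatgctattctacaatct
USP9X: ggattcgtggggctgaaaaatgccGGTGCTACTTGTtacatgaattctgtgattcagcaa
USP24: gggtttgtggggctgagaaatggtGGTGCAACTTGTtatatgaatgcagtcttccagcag
USP31: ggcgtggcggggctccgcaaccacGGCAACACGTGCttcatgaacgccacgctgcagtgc
USP15: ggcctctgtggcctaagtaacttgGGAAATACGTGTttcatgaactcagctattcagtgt
USP4: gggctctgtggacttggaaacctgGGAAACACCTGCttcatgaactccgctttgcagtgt
USP22: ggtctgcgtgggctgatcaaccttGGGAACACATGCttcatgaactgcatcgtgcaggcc
USP5: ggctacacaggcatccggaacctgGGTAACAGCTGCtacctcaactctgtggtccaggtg
The window has a GC content of 31.7% in USP45, 40.0% in USP37, 45.0% in USP9X, 48.3% in USP24, 68.3% in USP31, 45.0% in USP15, 53.3% in USP4, 56.7% in USP22 and 58.3% in USP5. USP31 has the highest value of all windows found, while its whole transcript is at 45.3%, so its window departs from its transcript. The trend is with the whole transcript, where USP31 lies below the median of all genes tested with M2 (45.9%). The genes lie on chromosomes 6 (USP45), 2 (USP37), X (USP9X), 1 (USP24), 16 (USP31), 12 (USP15 and USP5), 3 (USP4) and 17 (USP22). The box was found in 44 of the 51 USP genes and was written in 35 different ways at the level of bases. No match was found in USP18, USP39, USP41, USP47, USP50, USP53 and USP54, which says only that the pattern searched is not in the longest reading frame of the transcript used.

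The series title names a G-quadruplex, a fold of G-rich nucleic acid, so promoters were searched for the letters that can form it: GGG occurring 4 times with 1 to 7 bases of any kind between runs, on either strand. The 250 bases before the RefSeq start (GRCh38.p14) were used, and 53 members had an entry. The motif was present in 16 of them (30.2%) and in 22.5% of all 27305 promoters in the table. Member promoters had a median GC content of 69.6%, against 58% for all promoters, and the part of this in the motif's share was not tested. Among the members with at least 100 reads, 10 of the 27 with an entry held the motif (37.0%). Against the control, 3 of 7 members higher with M2 held it, and 1 of 1 lower with M2. In the library labelled LINC00273, 0 of 3 higher members and 1 of 3 lower members held it. These sets are small, and a link between the motif and the ratios was not tested. A promoter with the motif and a promoter without it are shown for USP34 (chr2:61471088-61471337, minus strand) and OTUD4 (chr4:145180590-145180839, minus strand), both higher with M2 than in the control. The capitals mark the motif.
USP34: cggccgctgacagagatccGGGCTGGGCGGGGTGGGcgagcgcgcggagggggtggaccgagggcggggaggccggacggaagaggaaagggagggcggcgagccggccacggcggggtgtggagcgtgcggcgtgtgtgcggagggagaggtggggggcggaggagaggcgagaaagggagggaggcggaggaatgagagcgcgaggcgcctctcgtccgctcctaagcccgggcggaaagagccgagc
OTUD4: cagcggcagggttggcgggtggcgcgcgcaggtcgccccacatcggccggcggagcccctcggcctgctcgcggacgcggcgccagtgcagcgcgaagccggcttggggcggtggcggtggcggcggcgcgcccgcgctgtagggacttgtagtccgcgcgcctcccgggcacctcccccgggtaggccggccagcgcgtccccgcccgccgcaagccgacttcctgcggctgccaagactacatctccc
These are matches of letters and describe neither a fold nor a cause.

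The libraries held 5123199 reads on genes (labelled LINC00273), 4695535 (M2) and 8620534 (control), of which RN7SL1 and RN7SK, 2 abundant non-coding RNAs, took 42.8%, 39.3% and 54.7%. LINC00273 itself was listed at 0 reads in all 3 libraries, so the overexpression rests on the label alone. Markers of the line summed to 1682, 1088 and 2073 CPM (labelled LINC00273, M2 and control). Of the 10327, 5099 and 14943 reads in these sums, VIM alone held 8910, 4182 and 11763. S100A6 had 1036, 488 and 2086 reads, CAV1 had 208, 288 and 725, and AXL had 87, 32 and 151. The keratins KRT8, KRT18 and KRT19 had at most 6 reads in any library, ANXA1 at most 15 and MKI67 at most 18. EGFR had 8, 61 and 95 reads and CD44 had 44, 29 and 86, in the same order of libraries. Blood markers summed to 7.33 in the library labelled LINC00273, 1417 with M2 and 818 in the control, nearly all of it haemoglobin: HBB, the beta chain, had 9, 5417 and 4860 reads, and HBA2 was at 0 in the library labelled LINC00273. Neural markers summed to 8.80, 4.48 and 4.16, and fibroblast markers to 9.94, 6.40 and 10.7, in the same order of libraries. The part of other cells in the results below was not tested. In RNA from whole spheres, fewer cells of a type and less RNA per cell cannot be told apart.

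Values below are reads scaled by TMM and given per 1000000 reads (CPM), or log2 ratios of these. Each interval is a 95% exact binomial interval that covers counting error only. Of the 69 members, 34 had at least 100 reads in 1 or more libraries (24 USP, 4 OTUD, 1 UCHL and 5 SENP genes), and these carry the results. Another 21 had 20 to 99 reads in their deepest library, and 14 had fewer than 20 in every library.

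USP5, which takes apart free ubiquitin chains, was the most abundant member per length in all 3 libraries. Its level was 88.7 CPM per kb in the library labelled LINC00273, 102 with M2 and 163 in the control. USP9X, a very large enzyme known to stabilise MCL1 and to act on SMAD4, came second in the library labelled LINC00273 (64.4 CPM per kb) and with M2 (93.9), and took rank 4 in the control (33.2). In the control, USP4 (51.7) and USP19 (48.3) stood between them. Not corrected for its long transcript, USP9X took 23.9% of all member reads in the library labelled LINC00273, 25.4% with M2 and 13.6% in the control. At the low end, SENP1 was the last of the 34 in the control, at 0.919 CPM per kb, and 27th and 26th with 2.95 CPM per kb (labelled LINC00273) and 4.78 (M2).

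**Figure D1:**
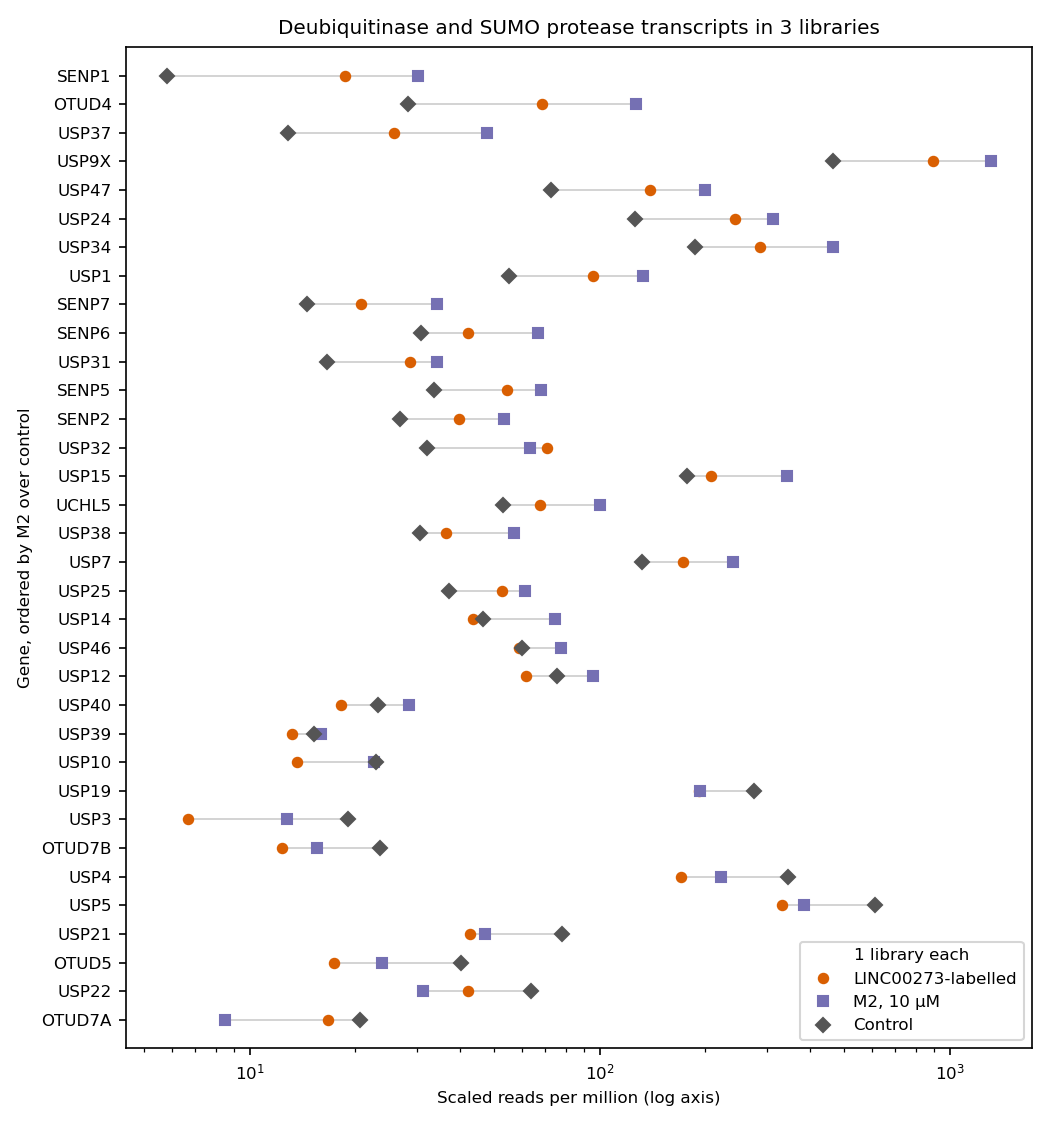
Scaled reads (CPM, log axis) of the 34 members with at least 100 reads in 1 or more libraries, 1 point per library, ordered by the ratio of M2 over control. USP9X and SENP1 lie to the right of their control points in both other libraries and USP5 to the left; at USP19 and USP46 the point of the library labelled LINC00273 is hidden behind another.

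Both comparisons with the control are described by a size rule: a gene with 100 reads or more in either library is called at a ratio of 2-fold or beyond. With M2, 12 of the 34 members were higher than in the control and 2 were lower. Over all 3805 genes tested, 17.4% were higher and 8.88% lower, and over 3502 protein-coding genes 18.1% and 8.14%. The 12 higher members were OTUD4, SENP1, SENP5, SENP6, SENP7, USP1, USP9X, USP24, USP31, USP34, USP37 and USP47, and the 2 lower ones were OTUD7A and USP22. In the library labelled LINC00273, 4 of the 34 (OTUD4, SENP1, USP32 and USP37) were higher than in the control and 3 (OTUD5, USP3 and USP4) were lower. Here 5.18% of 3842 genes were higher and 6.61% lower, and 5.57% and 5.94% of 3535 protein-coding genes. Members measured with at least 20 reads had a median log2 ratio of 0.36 with M2 over control (55 members, against −0.15 over all genes) and of 0.20 for the library labelled LINC00273 over control (57 members, against −0.08). Since both comparisons use the same control library, they are not independent of each other.

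**Figure D2:**
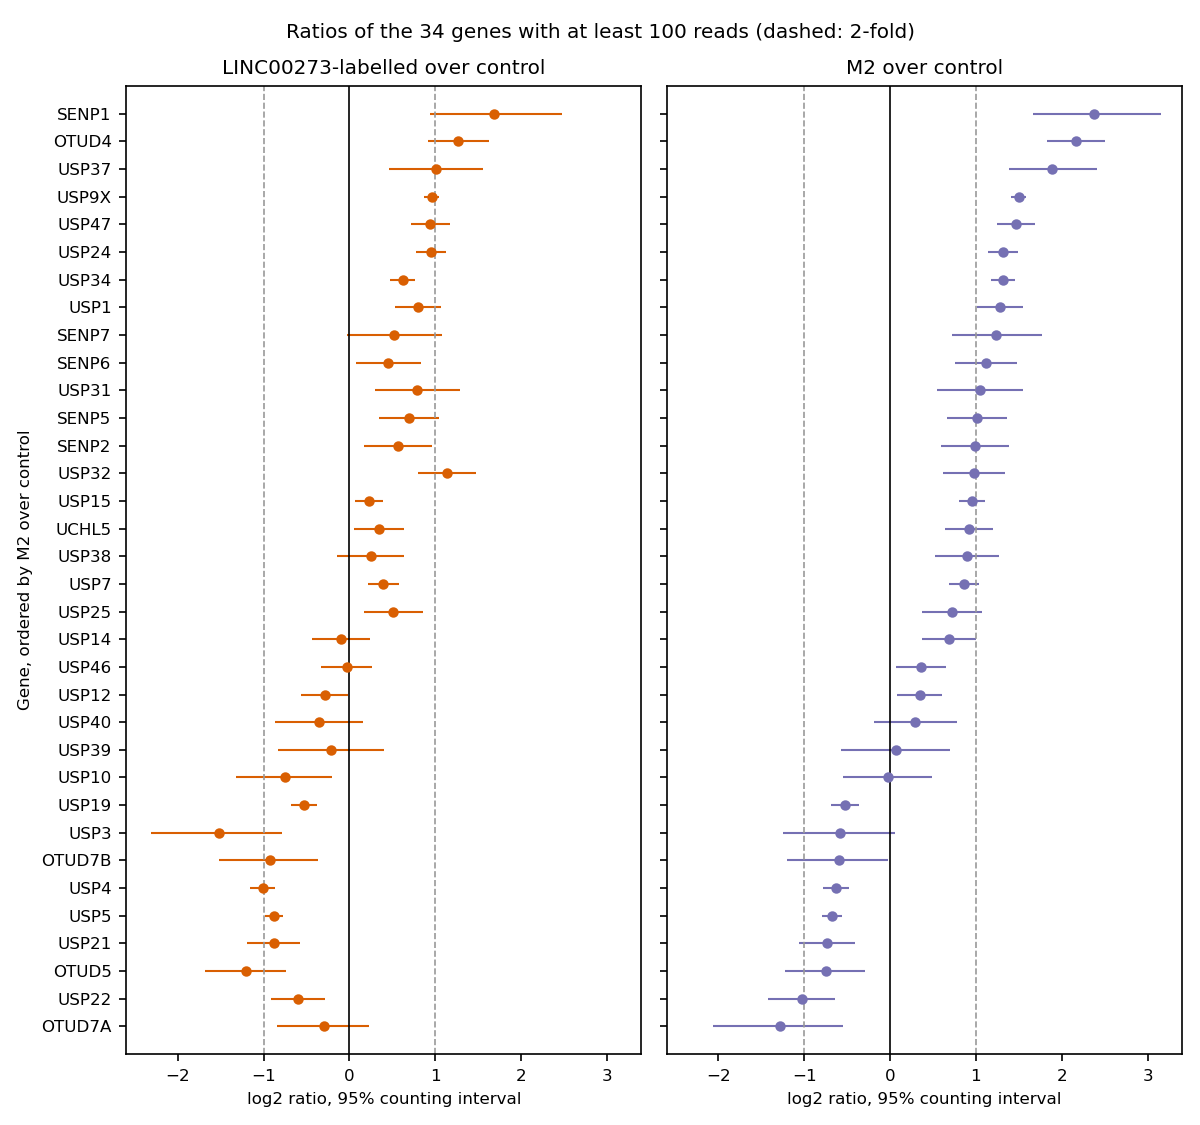
Log2 ratios over the control of the 34 members, with 95% counting intervals, for the library labelled LINC00273 (left) and for M2 (right); dashed lines mark a 2-fold ratio. With M2, 12 members lie beyond the upper line and 2 beyond the lower one, and in the library labelled LINC00273 4 and 3 do.

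The summed reads of the SENP genes were higher in both libraries than in the control. Their summed level was 177 CPM in the library labelled LINC00273, 256 with M2 and 114 in the control, a log2 ratio over control of 0.64 (interval 0.45 to 0.83) and of 1.17 (0.99 to 1.36). All 5 with at least 100 reads were above the control in both libraries, and 4 of them passed 2-fold with M2. Over all genes tested, 1518 of 3842 were above the control in the library labelled LINC00273 and 1881 of 3805 with M2, and 17.4% passed 2-fold with M2. All 5 SENP genes lie below the median GC content of the genes tested (45.9%). Among all genes on that side, 1251 of 1914 were above the control in the library labelled LINC00273 and 1482 of 1896 with M2. There 32.5% passed 2-fold upward with M2. SENP1, which matures SUMO and removes it from proteins, had 115 reads in the library labelled LINC00273, 142 with M2 and 42 in the control. The control was thus the low library in spite of being the deepest. Scaled, this is 3.22-fold higher in the library labelled LINC00273 (log2 1.68, 0.94 to 2.48) and 5.20-fold higher with M2 (log2 2.38, 1.66 to 3.16). Of the exonic bases of SENP1, 9.90% lie opposite PFKM, and without a stated strand setting the reads of both cannot be told apart there. SENP5, a nucleolar SUMO protease, stood at 54.4, 67.9 and 33.7 CPM (labelled LINC00273, M2 and control). SENP6 was at 42.0, 66.6 and 30.8 CPM, and SENP7 at 20.8, 34.4 and 14.6, in the same order. Both SENP6 and SENP7 are known for shortening SUMO chains, and their log2 ratios with M2 (1.11 and 1.24) fell to 0.32 and 0.46 once set against genes of similar GC content. SENP2, the nearest relative of SENP1, reached 0.99 with M2, just under the 2-fold line. SENP3 and SENP8 (a NEDD8 protease) had at most 9 reads in any library.

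Among the enzymes tied to DNA repair and replication, the summed level was 685 CPM in the library labelled LINC00273, 922 with M2 and 436 in the control. USP1, which takes ubiquitin off FANCD2 and PCNA, was at 95.6, 133 and 54.9 CPM in that order of libraries. USP24, a relative of USP9X, was at 243, 313 and 126 CPM. USP47, which acts on a repair polymerase, had 855, 937 and 523 reads. Scaled, each of these was lowest in the control and highest with M2, with log2 ratios of 1.28, 1.31 and 1.46 for M2 over control and of 0.80, 0.95 and 0.94 for the library labelled LINC00273 over control. The 9 members were less uniform than the sum: 5 had a positive and 4 a negative ratio with M2, with a median of 0.24 (0.17 after centring on GC content) against 1.08 for the sum. In the library labelled LINC00273, 6 were positive and 3 negative, with a median of 0.39 against 0.65 for the sum. USP7 also belongs here, with smaller ratios: 173 CPM (labelled LINC00273), 240 (M2) and 132 (control). USP3, which removes ubiquitin from histones, went the other way. It had 41 reads in the library labelled LINC00273, 60 with M2 and 138 in the control, a log2 ratio of −1.52 (−2.31 to −0.79) for the library labelled LINC00273, while with M2 the interval held 0 (−0.58, −1.25 to 0.06). Of its exonic bases, 22.7% lie opposite USP3-AS1, and without a stated strand setting the reads of both cannot be told apart. The partner of USP1, WDR48, had 222, 230 and 436 reads, with log2 ratios of −0.74 and −0.30.

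The group linked to TGF-beta receptors and SMAD proteins divided between its members. Its sum was 1282 CPM in the library labelled LINC00273, 1880.1 with M2 and 995 in the control, and most of it was USP9X, with 899, 1310.5 and 463 CPM. USP9X was 1.94-fold higher in the library labelled LINC00273, just under the size rule, and 2.83-fold higher with M2 (log2 interval 1.41 to 1.59). USP15, which deubiquitinates the receptor complex, was at 208, 344 and 178 CPM. USP4, its close relative with the same kind of substrate, was at 171, 223 and 344 CPM and so was highest in the control. The log2 ratio of USP4 was −1.01 (−1.16 to −0.86) in the library labelled LINC00273 and −0.63 (−0.78 to −0.48) with M2. Of the calls in the library labelled LINC00273, that of USP4 was lost with every other scaling run, at −0.96 with DESeq2 size factors, −0.93 with the deposited factors, −0.49 with the total count and −0.78 with GC centring. The median of the group was −0.39 for the library labelled LINC00273 over control, opposite in sign to the ratio of its sum (0.37). With M2, 2 measured members had a positive and 2 a negative ratio. The median there was 0.16 (−0.06 after centring on GC content), against 0.92 for the sum.

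OTUD4, an RNA-binding deubiquitinase, had the second highest ratio with M2 among the 34. It had 420 reads in the library labelled LINC00273, 596 with M2 and 205 in the control, so that the shallower libraries held more reads than the deepest. This is 2.41-fold higher in the library labelled LINC00273 (log2 1.27, 0.92 to 1.62) and 4.47-fold higher with M2 (2.16, 1.83 to 2.50). The ratio stayed at 1.62 with M2 when set against genes of similar GC content. OTUD4P1, a copy of the gene, shares 2.38% of its 100-base stretches. The other OTUD genes with at least 100 reads had negative ratios in both comparisons. OTUD5, which acts on an adaptor of interferon signalling, was at 17.4, 23.9 and 40.2 CPM (labelled LINC00273, M2 and control), with log2 ratios of −1.21 and −0.75, and its call in the library labelled LINC00273 was lost with the total count (−0.69) and with GC centring (−0.79). OTUD7A, of the Cezanne type, was at 16.8, 8.54 and 20.7 CPM and was the lowest of the 34 with M2 (log2 −1.28, −2.07 to −0.55), and its relative OTUD7B was at 12.4, 15.6 and 23.6 CPM. For the whole OTUD family, the ratio of the sums and the median over its members therefore differed in sign, both in the library labelled LINC00273 (0.01 and −0.84) and with M2 (0.57 and −0.42).

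The enzymes on the proteasome were UCHL5 and USP14. UCHL5 was at 67.6 CPM in the library labelled LINC00273, 100.3 with M2 and 53.1 in the control, and USP14 at 43.5, 74.7 and 46.5. Neither reached 2-fold, and their summed log2 ratio was 0.16 (−0.06 to 0.38) in the library labelled LINC00273 and 0.81 (0.61 to 1.02) with M2. Set against genes of similar GC content, the M2 ratios were 0.15 for UCHL5 and −0.01 for USP14. On the p53 and MDM2 axis, USP5 and USP7 went in opposite directions. USP5 had 2035 reads in the library labelled LINC00273, 1794 with M2 and 4401 in the control, with log2 ratios of −0.88 (−0.99 to −0.77) and −0.67 (−0.79 to −0.56). After centring on GC content, the ratios of USP5 were −0.58 (labelled LINC00273) and −0.12 (M2), and those of USP7 were 0.43 and 0.85. USP10, which acts on p53 in the cytoplasm, was at 13.7, 22.6 and 23.0 CPM; its interval lay below 0 in the library labelled LINC00273 (log2 −0.75, −1.32 to −0.20) and held 0 with M2.

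Members tied to histones and transcription were mostly below the control. Their sum was 123 CPM in the library labelled LINC00273, 126 with M2 and 198 in the control, and 7 of the 8 measured members had a negative ratio in both comparisons. Over all genes tested, which hold 100 reads or more in either library, 2324 of 3842 were negative in the library labelled LINC00273 and 1924 of 3805 with M2. The 8 were counted from 20 reads and only 3 of them had at least 100, so these counts are not at the same minimum. At the 20-read minimum the group medians were −0.61 (labelled LINC00273) and −0.66 (M2), against −0.08 and −0.15 over all genes. After centring on genes of similar GC content, the group medians were −0.33 and −0.49. USP22, the deubiquitinase of the SAGA coactivator, had 259, 147 and 460 reads (labelled LINC00273, M2 and control) and passed the size rule with M2 only, at a log2 ratio of −1.02 (−1.42 to −0.64), against −0.60 for the library labelled LINC00273. Centring on genes of similar GC content brought the M2 value to −0.52, and the call was also lost with DESeq2 size factors (−0.97), the deposited factors (−0.95) and the total count (−0.77). Of the exonic bases of USP22, 13.2% lie opposite AC087393.2. USP21, a histone deubiquitinase, had 261, 220 and 563 reads. Its log2 ratios were −0.88 (labelled LINC00273) and −0.73 (M2), and −0.52 and −0.21 after centring. Members of the mitochondria, endoplasmic reticulum and lipid droplets summed to 212 CPM in the library labelled LINC00273, 209 with M2 and 317 in the control. The sum was carried by USP19, which is anchored in the endoplasmic reticulum, at 192, 193 and 277 CPM, while the mitochondrial USP30 had 24, 11 and 64 reads. USP19 was the only 1 of the 6 members with at least 100 reads. Its log2 ratios of −0.53 (labelled LINC00273) and −0.52 (M2) came to −0.07 and 0.03 after centring on GC content. The group medians, mostly from members with few reads, were −1.08 and −1.32, and −1.04 and −0.83 after centring.

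In the endosome group, USP32, a membrane-bound enzyme, was at 70.5 CPM in the library labelled LINC00273, 63.2 with M2 and 32.2 in the control. Its log2 ratio was 1.13 (0.80 to 1.47) in the library labelled LINC00273 and 0.97 (0.61 to 1.34) with M2, and 16.5% of its 100-base stretches occur in another annotated gene. USP12 and USP46, relatives that both work with WDR48, had log2 ratios of −0.29 and −0.03 in the library labelled LINC00273 and of 0.34 and 0.36 with M2. Of the interferon and NF-kB group, USP31 was at 28.7, 34.4 and 16.6 CPM and was higher with M2 (log2 1.05, 0.55 to 1.55), with 25.2% of its 100-base stretches shared with AC127459.1. USP25 had 324, 286 and 267 reads, and the intervals of the summed ratio held 0 in both comparisons (−0.10 and 0.04), with medians of −0.62 and −0.60. The splicing factor USP39, which has lost its catalytic residues, was at 13.2, 16.0 and 15.3 CPM, and both of its intervals held 0.

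Several large members fall in none of these groups. USP34, known for acting on axin in Wnt signalling, was at 287 CPM in the library labelled LINC00273, 464 with M2 and 187 in the control. USP37, which stabilises cyclin A, was at 25.9, 47.8 and 12.9 CPM, with log2 ratios of 1.01 (0.47 to 1.56) and 1.89 (1.38 to 2.42). Part of both genes lies opposite another gene: 32.8% of the exonic bases of USP37 opposite VIL1 and 18.0% of those of USP34 opposite AHSA2P. USP38 (36.3, 57.0 and 30.7 CPM) and USP40 (18.2, 28.6 and 23.3 CPM) were highest with M2 and did not reach 2-fold.

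**Figure D3:**
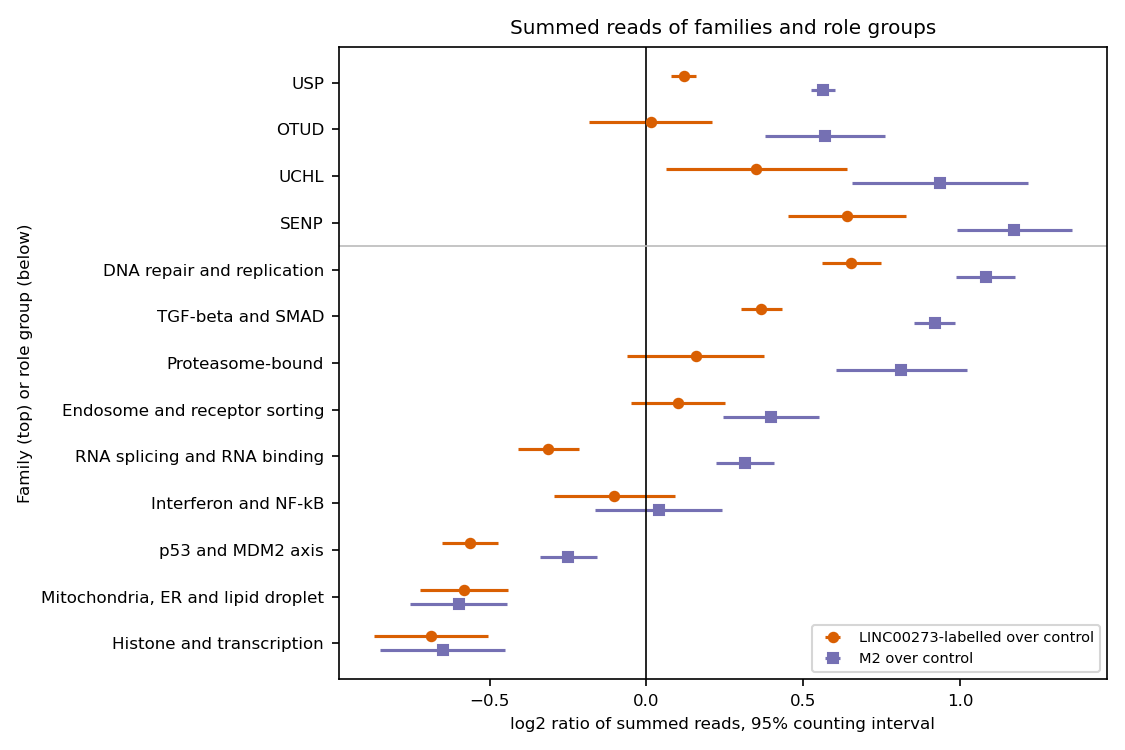
Log2 ratios over the control of the summed reads of the 4 families (top) and of the role groups (below), with 95% counting intervals. SENP genes have the highest family ratio (0.64 for the library labelled LINC00273 and 1.17 for M2), and the histone group the lowest role ratio (−0.69 and −0.65); a gene may belong to more than 1 role group.

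Relatives did not always go together. Of 24 related pairs, USP4 and USP15 were the deepest pair whose intervals lay apart in both comparisons with the control: with M2 the log2 ratio was −0.63 for USP4 and 0.95 for USP15. SENP1 and SENP2 lay apart with M2 (2.38 and 0.99), both above the control. USP35 and USP38 (−2.13 and 0.89), USP15 and USP11 (0.95 and −1.63) and USP36 and USP42 (−1.55 and 1.32) lay apart too, but USP35, USP11, USP36 and USP42 each had fewer than 100 reads in every library. USP12 and USP46, SENP6 and SENP7, and USP9X and USP24 had overlapping intervals. The transcript of USP4 has a GC content of 48.9% and that of USP15 of 36.5%, in the same order as the coding windows shown above. After centring on genes of similar GC content, the M2 ratios of USP4 and USP15 were −0.28 and 0.15.

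**Figure D4:**
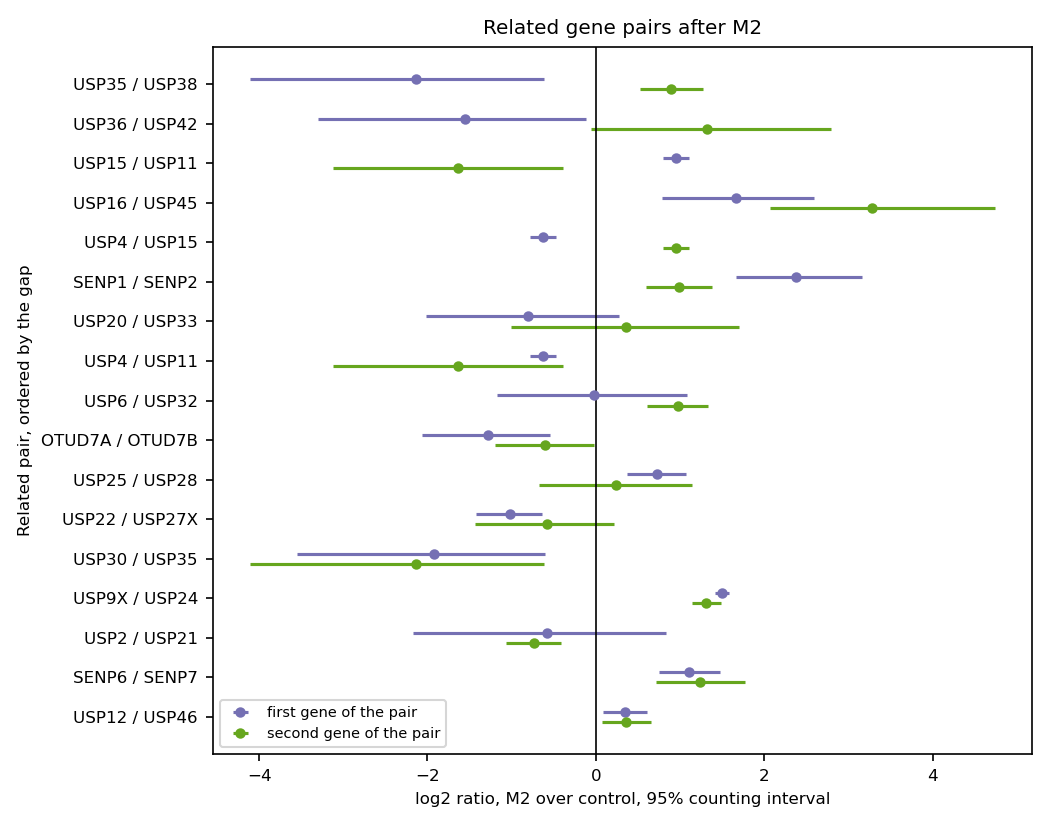
Log2 ratio of M2 over control for related pairs, the first-named gene of a pair above the second, with 95% counting intervals, ordered by the gap within the pair. Intervals of USP4 and USP15 and of SENP1 and SENP2 are apart, and those of USP12 and USP46 overlap almost fully.

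The ratios of members ran with the GC content of their transcripts, as those of all genes did. Across genes with at least 100 reads, Spearman's rho between GC content and the log2 ratio was −0.63 with M2 over control for the 34 members and −0.69 for 3792 genes, and −0.49 and −0.60 (3829 genes) for the library labelled LINC00273 over control. Genes are not independent replicates, and all points of a comparison share the same pair of libraries. Members had a median GC content of 43.0%, against 45.9% for all genes tested. Of the 23 members below the median of all genes, 12 were higher with M2 (52.2%, against 32.5% of all genes there). Of the 11 at or above it, 0 were higher and 2 were lower with M2, and under TMM scaling all 11 were below the control in the library labelled LINC00273. All genes at or above the median GC content were close to this: 2.16% were higher and 16.0% lower with M2, and 1651 of 1915 were below the control in the library labelled LINC00273. After the same centring on GC content, 6 members were higher with M2 (OTUD4, SENP1, USP24, USP32, USP37 and USP47) and 0 were lower, against 6.57% and 4.73% of all genes. The M2 calls lost were those of SENP5 (0.87), SENP6 (0.32), SENP7 (0.46), USP1 (0.74), USP31 (0.95), USP34 (0.69), USP9X (0.93), OTUD7A (−0.74) and USP22 (−0.52). In the library labelled LINC00273 2 were then higher (SENP1 and USP32) and 1 lower (USP3), against 3.07% and 3.80%, and the calls of OTUD4 (0.93), USP37 (0.62), OTUD5 (−0.79) and USP4 (−0.78) were lost. The median over measured members came to 0.15 with M2 and 0.01 in the library labelled LINC00273. The ratios over control also ran with exonic length. With at least 100 reads, Spearman's rho with length was 0.38 for members and 0.35 for all genes with M2. For the library labelled LINC00273 it was 0.37 and 0.39. Members were longer, with a median of 7759.5 nt, against 5791.5 nt (M2) and 5798 nt (labelled LINC00273) for all genes tested. What makes the ratios run with GC content or with length was not tested.

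**Figure D5:**
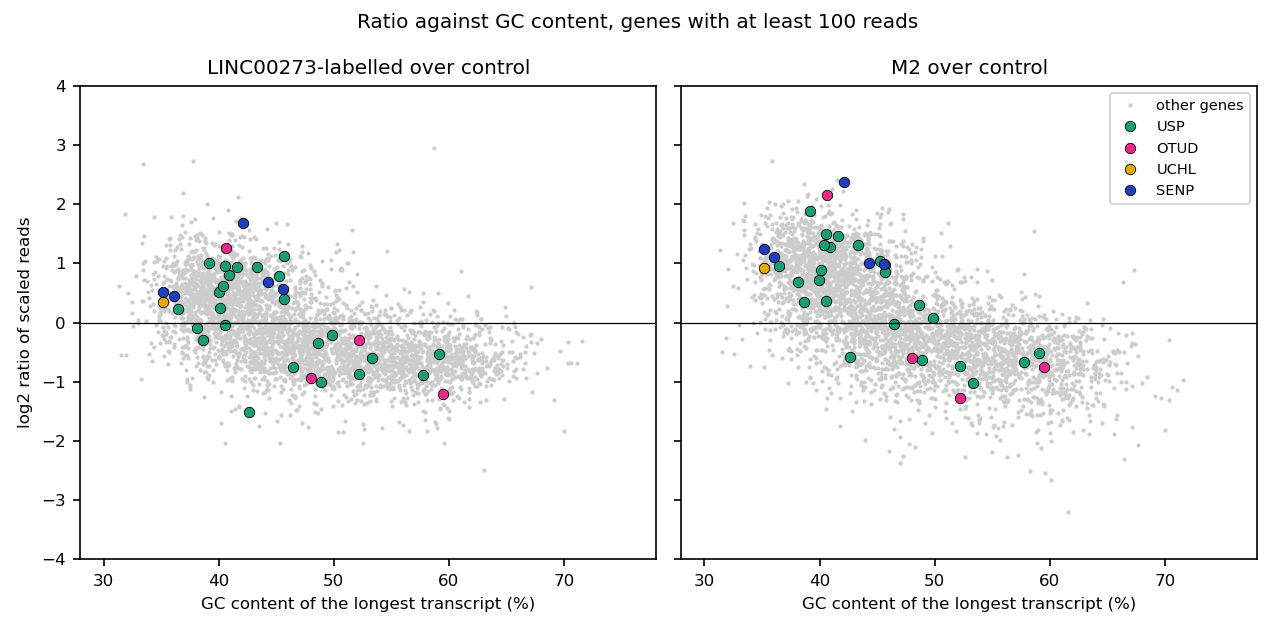
Log2 ratio over the control against the GC content of the longest transcript for genes with at least 100 reads, for the library labelled LINC00273 (left) and M2 (right); grey points are other genes and coloured points the members by family. Members follow the slope of the other genes, and OTUD4 and SENP1 lie at its upper edge with M2.

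Set directly against each other, M2 and the library labelled LINC00273 had 0 members higher and 0 lower of 31 tested. Over all 3404 genes tested, 1.65% were higher and 1.47% lower with M2, and over 3156 protein-coding genes 1.55% and 1.52%. Under TMM scaling 28 of the 31 had a positive ratio, against 2568 of 3404 over all genes. The median over 54 measured members was 0.39, against 0.11 over all genes, and at the 100-read minimum 0.48, against 0.29. Intervals lay above 0 for 24 of the 54 and below 0 for 2, against 1864 and 607 of 7824 measured genes. OTUD4 (log2 0.89, 0.63 to 1.16), USP37 (0.88, 0.46 to 1.32), USP14 (0.78, 0.45 to 1.12) and USP15 (0.72, 0.57 to 0.88) were higher with M2 by more than counting error. The 2 with intervals below 0 were OTUD7A (−0.97, −1.80 to −0.20) and USP22, whose interval ended just under 0 (−0.43, −0.86 to −0.004). USP32 and USP19 did not differ beyond counting error (−0.16, −0.47 to 0.15, and 0.01, −0.17 to 0.19).

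Other genes of the ubiquitin and SUMO pathway were counted by the same size rule, list by list; over all genes, 17.4% were higher and 8.88% lower with M2, and 5.18% and 6.61% in the library labelled LINC00273. The lists are small, and their counts were not tested against these shares. With M2, 1 of 11 other deubiquitinases with enough reads was higher (MYSM1, a histone deubiquitinase, at 1.13) and 0 were lower, and in the library labelled LINC00273 0 were higher and 1 was lower (EIF3H, a subunit of a translation factor, at −1.17). Of 9 SUMO conjugation genes, 3 were higher with M2: RANBP2 (1.53), a SUMO ligase of the nuclear pore, ZNF451 (1.40), a SUMO ligase, and RNF111 (1.13), a ubiquitin ligase that reads SUMO. Neither comparison had a lower one, and the library labelled LINC00273 had 0 higher. SUMO2 itself had 8539, 8386 and 10192 reads (labelled LINC00273, M2 and control), with log2 ratios of −0.02 and 0.34. Among ubiquitin genes and activating and conjugating enzymes, 2 of 28 were higher with M2 (UBA6 at 1.29 and BIRC6 at 1.42) and 2 were lower (UBE2S at −1.04 and UBE2E2 at −1.28), while 0 of 27 were higher and 1 was lower (UBE2E2 at −1.41) in the library labelled LINC00273. The main activating enzyme, UBA1, had ratios of −0.77 and −0.60. In the NEDD8 and COP9 list, 3 of 14 were higher with M2, all of them cullin scaffolds: CUL2 (1.22), CUL4B (1.40) and CUL5 (1.55). COPS6, a subunit of the COP9 signalosome, was lower in the library labelled LINC00273 (−1.05). In the list of partners and substrates, 1 of 11 was higher in each comparison, in both cases SMAD7, an inhibitor of TGF-beta signalling that USP15 and others bind, with 2074 reads in the library labelled LINC00273, 596 with M2 and 315 in the control. SMAD3, which carries the TGF-beta signal, was lower in the library labelled LINC00273 (−1.85) and at −0.82 with M2. After centring on genes of similar GC content, the M2 ratios of CUL2 (0.56), CUL4B (0.66) and CUL5 (0.74) were within 2-fold. So were those of RANBP2 (0.80), ZNF451 (0.56), RNF111 (0.58), MYSM1 (0.34), UBA6 (0.50) and UBE2S (−0.44). Those of BIRC6 (1.22), SMAD7 (2.11) and UBE2E2 (−1.86) stayed beyond it. In the library labelled LINC00273, COPS6 came within it (−0.70), while EIF3H (−1.49), UBE2E2 (−1.73), SMAD7 (3.34) and SMAD3 (−1.68) did not.

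Among members with 20 to 99 reads, the widest ratio in both comparisons belonged to USP45, an enzyme that acts on a repair nuclease, named here after its values were seen. It had 50 reads in the library labelled LINC00273, 82 with M2 and 13 in the control, with log2 ratios of 2.18 (0.89 to 3.69) and 3.28 (2.07 to 4.74). The authors' deposited tables of selected genes list it as up in both comparisons, at log2 values of 2.25 and 3.35. For M2, the authors' deposited table also lists OTUD4 (2.23) and SENP1 (2.45) as up. For LINC00273 overexpression, the authors' deposited table adds USP18 (2.77) and USP29 (2.31), which had 11 and 8 reads in that library, 0 and 0 with M2 and 2 and 2 in the control. The intervals of both in that comparison held 0 (−0.40 to 8.23 for USP18 and −1.11 to 7.85 for USP29). OTUD6A, UCHL3, USP18, USP26, USP29 and USP50 had 0 reads in 1 or more libraries. At 0 reads, a level of up to 0.977 CPM (labelled LINC00273), 1.28 CPM (M2) or 0.832 CPM (control) remains possible, taking 3 fragments as the floor, so differences among these genes were not detectable at this depth. SENP3 and UCHL3 share 56.2% and 42.0% of their 100-base stretches with another annotated gene, and USP18 and USP41 share sequence with each other, so that their reads may be divided between copies.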

How the data were processed

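The 3 libraries are from MDA-MB-231 tumorspheres (labelled LINC00273, M2 and control, 1 each). Per the labels' protocols, RNA was extracted with TRIzol and depleted of ribosomal RNA with RiboCop; paired-end reads were sequenced. The submitters' processing notes name hg19 and list Trimmomatic, STAR, DESeq2, featureCounts 1.5.2 and Bowtie2 2.2.4. Settings, strandedness and the handling of multi-mapping reads: not given in the sources used here.

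The authors deposited a signal per gene and library: read counts divided by 1 factor per library. Within each library 100% of values were whole multiples of 1 step (tolerance 0.01), and these whole reads were recovered and used. The design had assumed counts. The ratio and log2 columns deposited by the authors compare the scaled values. With 1 library per group no count test was run, so no number of genes called by such a test is given. Reads were scaled by TMM (edgeR 4.0.16). Of genes under 20 reads, 80.5% (labelled LINC00273), 85.8% (M2) and 82.3% (control) had even counts, so intervals (Clopper-Pearson) and floors (3 fragments) use fragments, reads divided by 2. PCR reads are not independent molecules, so both cover counting error only. A member counts as measured when the compared libraries together hold 20 reads or more.

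Alternatives were DESeq2 1.42.0 size factors, the total count, the deposited size factors, GC centring (running median of 200 genes of like GC content), other read minimums and thresholds, and a prior of 5 reads. GC content, exonic length and overlaps came from GENCODE 29 (GRCh38), matched by Ensembl ID, or by symbol for 2 members; authors' coordinates were not used. Named genes were the members past the size rule, then the members with at least 100 reads by role, with exceptions stated. Members, role groups, pairs, pathway lists and markers (of the line, genes low in it, blood, neural and fibroblast cells) were chosen with earlier results of these data known. Genes low in the line summed to 13.8, 10.2 and 15.0 CPM (labelled LINC00273, M2 and control). The calculations were tested on simulated data.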

Additional observations from a re-analysis of the deposited data

How the results depend on the processing

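With the total count as the scale, the all-gene median log2 ratio shifted by 0.52 (labelled LINC00273 over control), 0.26 (M2 over control) and −0.26 (M2 over labelled LINC00273), by the same amount for every gene, and member counts changed with it. For the library labelled LINC00273 over control (4 higher, 3 lower), the counts were 5 and 2 with DESeq2 size factors, 14 and 1 with the total count, 7 and 2 with the deposited size factors, 2 and 1 with ratios centred on GC content, 7 and 8 with a read minimum of 20, 0 and 1 with a minimum of 500, 11 and 8 at 1.5-fold and 0 and 0 at 4-fold. For M2 over control (12 and 2), they were 15 and 1 with DESeq2 size factors and with the deposited size factors, 18 and 1 with the total count, 6 and 0 with GC centring, 16 and 8 with a minimum of 20, 6 and 0 with a minimum of 500, 20 and 7 at 1.5-fold and 2 and 0 at 4-fold. For M2 over the library labelled LINC00273 (0 and 0), they were 0 and 1 (OTUD7A) with the total count, 1 (USP45) and 1 (USP36) with a minimum of 20 and 12 and 1 at 1.5-fold. The median over measured members ranged from 0.01 (GC centring) to 0.72 (total count) for the library labelled LINC00273 over control (0.20), from 0.15 (GC centring) to 0.88 (100-read minimum) for M2 over control (0.36) and from 0.13 (total count) to 0.48 (100-read minimum) for M2 over the library labelled LINC00273 (0.39). No member past the size rule reversed. A higher minimum leaves fewer genes to test, and the cause of the other shifts was not tested. No paired analysis was possible because each group holds 1 library, and no library could be left out for the same reason.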
